A study of Mus musculus with 16 samples.

Results

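The genes described are 9 metallothionein and metal handling genes, for zinc, iron and other metals: Mt1, Mt2, Slc30a1, Slc30a10, Slc39a14, Hamp, Slc40a1, Tfrc and Cp. They were chosen by name, with earlier results of these data known, from 18820 genes. The arrays measured these genes through a probe set with exactly 1 gene symbol, and each gene stands for its probe set with the highest mean. RNA from whole livers was measured on Affymetrix whole-transcript arrays, 1 array for each of 16 male mice aged 7 days, with 4 animals in each of 4 genotypes. All mice were of a C57/BL6 - SV129Ola mix.

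The IKKβ triple KO lacked Traf2, Casp8 and Ikkβ in liver parenchymal cells (LPC), deleted from floxed alleles by the alfp-Cre transgene. The RIPK3 triple KO lacked Traf2 and Casp8 in LPC by the same transgene and Ripk3 constitutively, so that every cell of the animal carried the Ripk3 deletion. The TRAF2/Casp8 KO lacked Traf2 and Casp8 in LPC alone. The WT animals were littermates with floxed alleles and no Cre. The transgene targets LPC, so by design the other cells of the liver are outside the Cre deletions. Of the deleted proteins, TRAF2 relays signals from TNF receptors. Caspase-8 carries out apoptosis downstream of death receptors and holds back necroptosis, the lytic form of cell death that depends on RIPK3. IKKβ activates canonical NF-κB.

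Metallothioneins are small cysteine-rich proteins that bind zinc and copper. Their genes are switched on by the zinc-sensing factor MTF1, which binds metal response elements in promoters, and also by glucocorticoids and by interleukin-6 signalling; hepatic metallothionein is known to be high in newborn mice. Hepcidin, the product of Hamp, is a liver hormone that causes the iron exporter ferroportin to be degraded, and its gene responds to BMP-SMAD signalling and to inflammation.

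The promoter windows of the 3 genes whose differences passed the test are shown because metal response elements lie in such windows. They were taken from RefSeq (GRCm38.p6) and run 5′ to 3′ from 250 bases before to 50 bases after the gene start, on the plus strand. Capitals mark matches to the core letters TGCACNC or TGCGCNC on either strand, and none of the matches shown overlap. The window of Mt1 is chr8:94178839-94179138, that of Mt2 is chr8:94172368-94172667 and that of Slc30a1 is chr1:191906531-191906830.
Mt1: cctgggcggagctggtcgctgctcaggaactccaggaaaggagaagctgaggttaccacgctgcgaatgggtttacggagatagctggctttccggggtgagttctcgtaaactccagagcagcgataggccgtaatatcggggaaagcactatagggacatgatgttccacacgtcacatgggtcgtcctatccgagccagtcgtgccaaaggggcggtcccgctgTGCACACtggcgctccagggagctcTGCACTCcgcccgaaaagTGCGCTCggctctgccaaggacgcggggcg
Mt2: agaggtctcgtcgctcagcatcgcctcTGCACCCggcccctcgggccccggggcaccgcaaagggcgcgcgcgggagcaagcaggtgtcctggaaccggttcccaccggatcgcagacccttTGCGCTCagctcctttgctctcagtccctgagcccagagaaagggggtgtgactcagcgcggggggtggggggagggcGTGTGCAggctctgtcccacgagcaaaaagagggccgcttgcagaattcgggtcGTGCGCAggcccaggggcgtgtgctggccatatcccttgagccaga
Slc30a1: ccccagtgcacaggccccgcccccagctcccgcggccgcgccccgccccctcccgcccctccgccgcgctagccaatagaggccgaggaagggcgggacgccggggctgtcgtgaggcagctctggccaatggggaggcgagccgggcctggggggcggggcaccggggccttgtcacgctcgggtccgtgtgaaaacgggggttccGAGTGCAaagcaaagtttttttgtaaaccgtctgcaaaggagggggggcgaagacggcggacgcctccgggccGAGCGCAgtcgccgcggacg

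The Mt1 window held 3 matches, starting 23 bases before the gene start annotated in RefSeq and at bases 3 and 21 after it. Where transcription starts in these livers was not measured, so the windows need not cover the core promoters. The Mt2 window held 4 matches and the Slc30a1 window held 2. Of 32851 promoter windows of the same length, 25.7% held at least 1 match, 7.11% at least 2, 1.97% at least 3 and 0.517% at least 4. Among the other members there were windows for Slc30a10 (3 matches), Tfrc (2 matches in 1 of its 2 windows), Hamp (0) and Cp (0). In both Slc30a10 and Tfrc, 2 of the matches overlap on opposite strands. A match is a run of letters, not a measured binding site. Mt1 and Mt2 are neighbours on chromosome 8, together with Mt3 and Mt4, with 0 other protein-coding genes between them.

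Hepatocyte markers were high in every array: the mean log2 signal of 7 measured markers lay between 11.69 and 12.17 over the 16 livers. Array medians lay between 4.90 and 5.05, and arrays of a genotype correlated at 0.981 to 0.991. Ripk3 was at 4.07 to 4.40 in the RIPK3 triple KO and at 5.62 to 6.42 elsewhere, and Casp8 and Ikbkb were also low where the labels say they were deleted. Traf2 went against the labels: it was at 6.87 to 7.53 in the 12 arrays labelled as deleted and at 6.21 to 6.40 in WT; which exons its probe set covers is not given in the sources used here, and genotype names below are those of the labels. By plate positions read from the array names, each genotype filled its own set of positions, so position and genotype cannot be told apart in any comparison. The array name of TRAF2/Casp8 KO replicate 4 began with a prefix other than that of all the other arrays. What the prefix stands for is not given. One WT animal (replicate 1) differed most from its group, with the lowest array weight of all, 0.461. In whole liver, fewer cells of a type and less RNA per cell cannot be told apart.

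In the RIPK3 triple KO, both metallothioneins and the zinc exporter Slc30a1 were lower than in WT. Slc40a1 and Cp stayed within narrow ranges over all arrays. Hamp varied widely between animals, with no difference past the threshold. All values below are log2 signals, on which each unit is a doubling, and a difference was called when its adjusted p in limma was under 0.05.

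**Figure D1:**
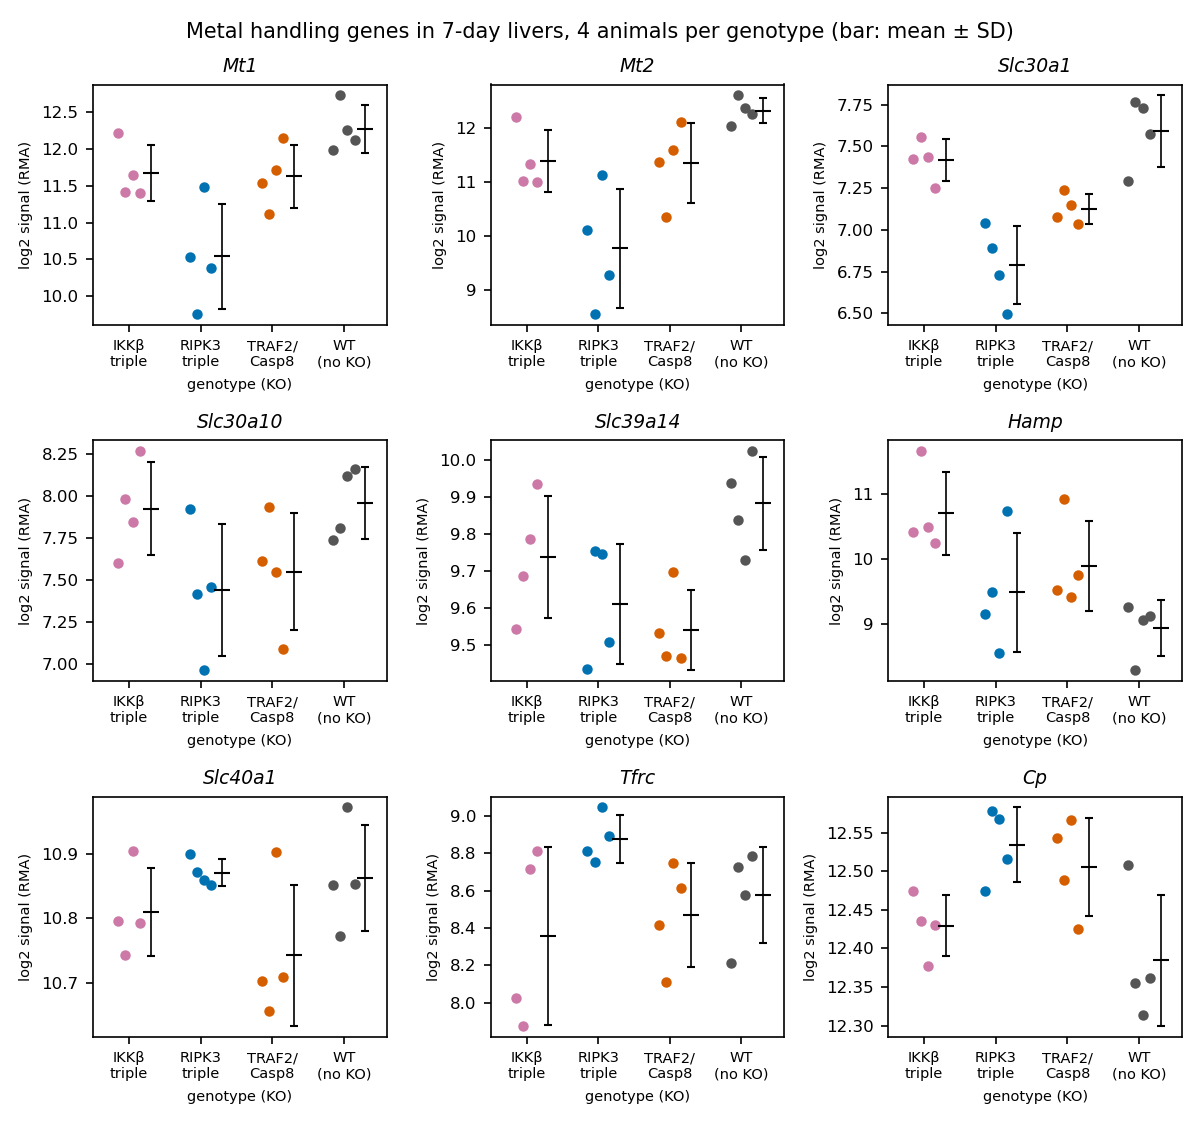
Log2 signal of the 9 genes (vertical axes, RMA scale) in each of 16 livers by genotype, with 1 point per animal and bars for the mean ± SD (n = 4). The RIPK3 triple KO points of Mt1, Mt2 and Slc30a1 lie below all WT points, while the Slc40a1 and Cp axes span only 0.31 and 0.27 log2 units of data.

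In the RIPK3 triple KO against WT, 3 of 9 members were called, all 3 lower, where 0.894% of all probe sets were called lower and 2.38% in either direction. The groups did not overlap for these same 3 members, against 3.42% of probe sets that did not overlap and were lower. The IKKβ triple KO against the RIPK3 triple KO gave 1 call of 9, Slc30a1 higher, where 0.503% of probe sets were called higher and 1.59% in either direction; it was also the 1 member higher without overlap, against 3.34% of probe sets. The other comparisons gave 0 calls among the members in limma. They were the TRAF2/Casp8 KO against WT (2.25% of probe sets called), the RIPK3 triple KO against the TRAF2/Casp8 KO (0.264%), the IKKβ triple KO against the TRAF2/Casp8 KO (0.627%) and the IKKβ triple KO against WT (0.0197%). In the test for any difference among the 4 genotypes, Mt1 (limma adjusted p = 0.0289), Mt2 (0.033) and Slc30a1 (0.00698) passed, where 2.83% of probe sets did. In that test Mt1 missed the threshold without any of 6 of the arrays (up to 0.0792) and Mt2 without any of 8 (up to 0.0877), and Hamp passed without RIPK3 triple KO replicate 4 (0.0489). Comparisons that share a genotype share its 4 arrays. The members were chosen with earlier results of these data known, and Mt1 and Mt2 varied together, so the counts beside the shares do not test for an excess.

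The median log2 difference of the 9 members was −0.27 in the RIPK3 triple KO against WT, beside −0.01 over all genes. In the TRAF2/Casp8 KO against WT it was −0.34, again beside −0.01. In the IKKβ triple KO against the RIPK3 triple KO it was 0.49, beside −0.01. The remaining comparisons had smaller medians. They were −0.11 in the RIPK3 triple KO against the TRAF2/Casp8 KO (−0.0018 over all genes) and 0.07 in the IKKβ triple KO against the TRAF2/Casp8 KO (−3e-04). In the IKKβ triple KO against WT the median was −0.15 (−0.01).

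**Figure D2:**
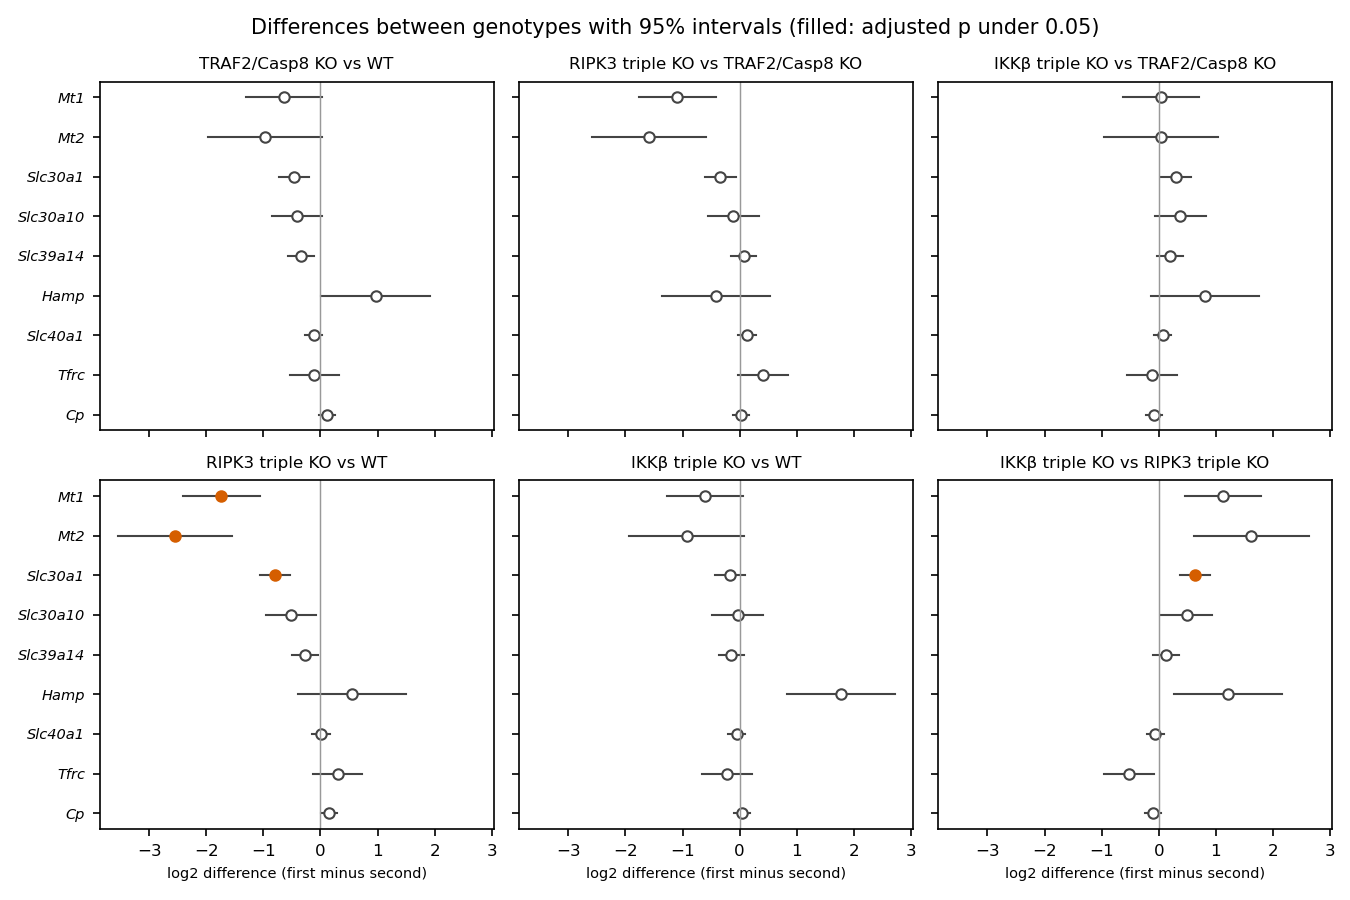
Log2 difference (horizontal axes, first genotype minus second) of the 9 genes in the 6 comparisons, with 95% intervals; filled points have an adjusted p under 0.05. Filled points are Mt1, Mt2 and Slc30a1 in the RIPK3 triple KO against WT, and Slc30a1 in the IKKβ triple KO against the RIPK3 triple KO.

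Mt1, which encodes metallothionein 1, had 12.22, 11.42, 11.64 and 11.40 in the IKKβ triple KO, 10.53, 9.76, 11.48 and 10.39 in the RIPK3 triple KO, 11.54, 11.11, 11.72 and 12.15 in the TRAF2/Casp8 KO, and 11.98, 12.73, 12.26 and 12.12 in WT. All 4 RIPK3 triple KO values lay below the lowest WT value. Mt1 averaged 10.54 ± 0.71 in the RIPK3 triple KO and 12.27 ± 0.32 in WT (SD, n = 4 each), and fell by 1.73 ± 0.31 (SE) on the log2 scale, which is 3.32-fold (limma adjusted p = 0.00862). Without any 1 array the adjusted p stayed at 0.0343 or below, but it was 0.0555 in a fit of these 2 genotypes alone.

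Mt2, which encodes metallothionein 2, had 12.21, 11.01, 11.34 and 11.00 in the IKKβ triple KO, 10.12, 8.56, 11.12 and 9.27 in the RIPK3 triple KO, 11.36, 10.35, 11.59 and 12.11 in the TRAF2/Casp8 KO, and 12.04, 12.60, 12.37 and 12.27 in WT. RIPK3 triple KO livers again lay below all WT livers and spread widely, with an SD of 1.10 against 0.23 in WT. Mt2 fell by 2.55 ± 0.47 (SE) in the RIPK3 triple KO against WT, which is 5.87-fold (limma adjusted p = 0.00964). Leaving out any 1 array kept the adjusted p at 0.035 or below, and the highest over the other settings tried was 0.0487.

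The order of the genotype means was the same for both metallothioneins: WT, then the IKKβ triple KO, the TRAF2/Casp8 KO and the RIPK3 triple KO. No neighbours in that order differed past the threshold. Against WT, Mt1 and Mt2 differed by −0.60 and −0.93 in the IKKβ triple KO (limma adjusted p = 0.81 and 0.804) and by −0.64 and −0.97 in the TRAF2/Casp8 KO (0.384 and 0.383), and in both cases the groups overlapped. The RIPK3 triple KO minus the TRAF2/Casp8 KO was −1.09 for Mt1 (adjusted p = 0.232, 95% interval −1.76 to −0.42) and −1.59 for Mt2 (adjusted p = 0.244). The IKKβ triple KO minus the RIPK3 triple KO was 1.13 for Mt1 (adjusted p = 0.0935) and 1.62 for Mt2 (0.106), and both passed without RIPK3 triple KO replicate 3 (0.0299 and 0.0415), the RIPK3 triple KO liver with the highest metallothionein signals.

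Mt1 and Mt2 varied together from animal to animal. Their Pearson r over the 16 arrays was 0.99, and 0.96 for the deviations from genotype means; both values come from the same 16 RNA samples. The other metallothionein genes of the cluster had 0 calls of 2 in each of the 6 comparisons: Mt3 lay between 4.53 and 5.23 and Mt4 between 3.09 and 3.53 over all arrays. These signals lay near or below the array medians of 4.90 to 5.05, where a fall could go unseen. Mtf1, the metal-responsive transcription factor, averaged 6.82 ± 0.07 in the RIPK3 triple KO and 6.69 ± 0.15 in WT (difference 0.13, limma adjusted p = 0.657).

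**Figure D3:**
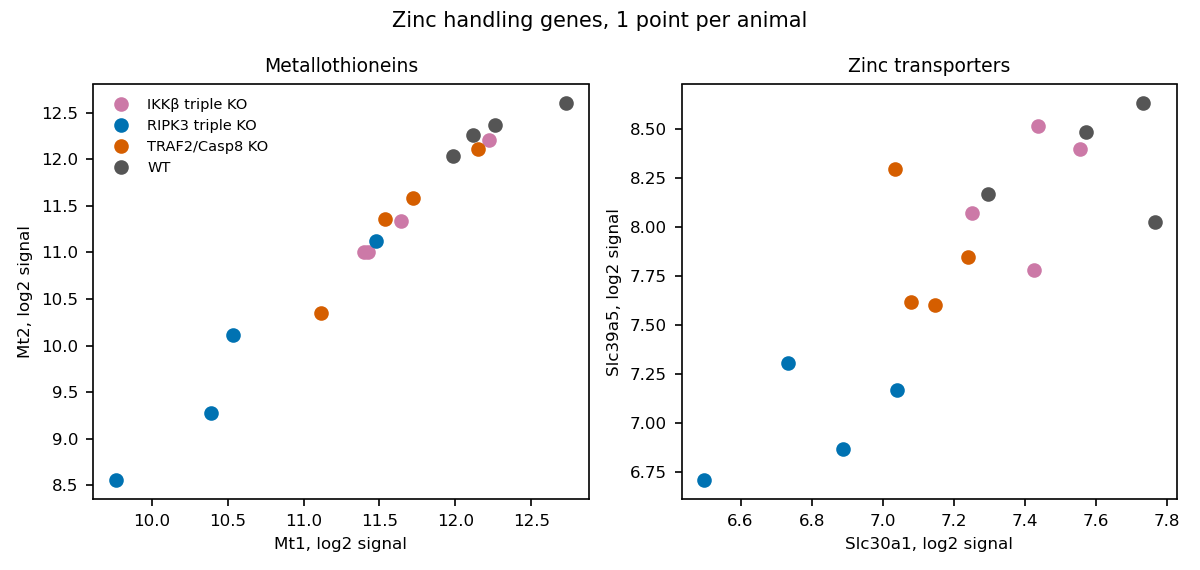
Mt2 against Mt1 (left) and Slc39a5 against Slc30a1 (right), log2 signal on both axes, 1 point per animal coloured by genotype. RIPK3 triple KO animals hold the lowest 3 Mt1 and Mt2 values and the lowest 4 Slc39a5 values, and Slc39a5 lies at 6.71 to 7.31 there.

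Slc30a1 encodes ZnT1, the zinc exporter of the cell surface and a known MTF1 target. It had 7.43, 7.56, 7.44 and 7.25 in the IKKβ triple KO, 7.04, 6.89, 6.73 and 6.50 in the RIPK3 triple KO, 7.08, 7.24, 7.15 and 7.03 in the TRAF2/Casp8 KO, and 7.30, 7.76, 7.73 and 7.57 in WT. RIPK3 triple KO livers lay below all WT and all IKKβ triple KO livers, and overlapped narrowly with TRAF2/Casp8 KO livers. IKKβ triple KO livers lay just above TRAF2/Casp8 KO livers, where 2.52% of probe sets were higher without overlap.

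Slc30a1 fell by 0.80 ± 0.12 (SE) in the RIPK3 triple KO against WT, which is 1.74-fold (limma adjusted p = 0.00267). It was higher by 0.63 ± 0.12 in the IKKβ triple KO than in the RIPK3 triple KO, which is 1.55-fold (adjusted p = 0.0213); that call was lost without RIPK3 triple KO replicate 3 (0.0702), IKKβ triple KO replicate 2 (0.0673) or IKKβ triple KO replicate 3 (0.0544), and in a fit of these 2 genotypes alone (0.0817). The TRAF2/Casp8 KO minus WT difference was −0.47 with groups that did not overlap, and missed the threshold (adjusted p = 0.0661); it passed without WT replicate 1 (0.0203) or RIPK3 triple KO replicate 4 (0.0429). A further probe set annotated to both Slc30a1 and 1700034H15Rik lay at only 3.61 to 4.34 over all arrays and had no call in the RIPK3 triple KO against WT (−0.09, adjusted p = 0.847) or in the IKKβ triple KO against the RIPK3 triple KO (0.09, 0.835).

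Among the other 8 zinc exporter genes of the Slc30 family, Slc30a9 was called. It had 8.56, 8.70, 8.45 and 8.39 in the RIPK3 triple KO, 8.58, 8.39, 8.81 and 8.72 in the TRAF2/Casp8 KO, and 8.04, 8.01, 8.15 and 8.14 in WT. It was higher than WT in the TRAF2/Casp8 KO by 0.54 (limma adjusted p = 0.0166, missed when WT replicate 2, TRAF2/Casp8 KO replicate 3 or TRAF2/Casp8 KO replicate 4 was left out, up to 0.062) and in the RIPK3 triple KO by 0.44 (adjusted p = 0.04999, up to 0.138 and not called without any of 12 of the arrays, and 0.0784 in a fit of these 2 genotypes alone).

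Of 13 other zinc importer genes of the Slc39 (ZIP) family, Slc39a5 was called. ZIP5 takes up zinc at basolateral membranes. Slc39a5 had 7.78, 8.40, 8.52 and 8.07 in the IKKβ triple KO, 7.17, 6.87, 7.31 and 6.71 in the RIPK3 triple KO, 7.62, 7.85, 7.60 and 8.30 in the TRAF2/Casp8 KO, and 8.17, 8.03, 8.63 and 8.49 in WT. The 4 RIPK3 triple KO livers were the lowest 4 of all 16. Slc39a5 fell by 1.32 ± 0.20 (SE) in the RIPK3 triple KO against WT (2.49-fold, limma adjusted p = 0.0024) and was higher by 1.18 ± 0.20 in the IKKβ triple KO than in the RIPK3 triple KO (2.27-fold, adjusted p = 0.00877); both calls held without any 1 array. The median difference in the RIPK3 triple KO against WT was 0.08 over the 13 genes and −0.01 over all genes.

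Markers of blood cells and bile ducts were read beside these genes. The mean of 12 neutrophil and myeloid precursor markers lay at 6.16 to 7.74 in the RIPK3 triple KO and at 7.61 to 9.22 in WT, with 0 of the 12 called; the lowest single marker averaged 4.20 in the RIPK3 triple KO and 5.39 in WT, and the log2 array scale has no zero to mark absence. The mean of 12 erythroid markers lay at 5.27 to 7.18 in the RIPK3 triple KO and at 6.56 to 7.52 in WT, with 0 of 12 called. The mean of 6 biliary markers lay at 5.57 to 5.86 in the RIPK3 triple KO and at 4.94 to 5.23 in WT, with Epcam and Sox9 called higher (limma adjusted p = 0.0461 and 0.00072); the Epcam call was lost without any of 12 of the arrays and in a fit of these 2 genotypes alone (0.168), and the Sox9 call held without any 1. Of 9 measured T, NK and B lymphocyte markers, whose mean lay at 5.18 to 5.46 in the RIPK3 triple KO and at 4.87 to 5.99 in WT, the granzyme A gene Gzma was called lower. Gzma had 5.24, 4.90, 5.15 and 5.49 in the RIPK3 triple KO and 5.98, 6.03, 5.65 and 5.92 in WT, a difference of −0.70 (limma adjusted p = 0.00448, held without any 1 array, 0.0672 in a fit of these 2 genotypes alone). In the TRAF2/Casp8 KO the means lay at 7.23 to 8.65 (neutrophil and myeloid), 5.80 to 7.26 (erythroid) and 5.90 to 6.04 (biliary), so that the biliary mean was higher in every TRAF2/Casp8 KO liver than in any RIPK3 triple KO liver. Against the TRAF2/Casp8 KO, the RIPK3 triple KO was lower in Cldn7, the 1 of 6 biliary markers called (−0.9997, adjusted p = 0.0117, lost when TRAF2/Casp8 KO replicate 4 or replicate 3 of the RIPK3 triple KO was omitted). Gzma was lower there too (−0.62, adjusted p = 0.0383, up to 0.153 and lost without any of 13 of the arrays). Neither was called in a fit of these 2 genotypes alone (0.101 and 0.182). The median difference of the 6 biliary markers was −0.16, and not all were lower. Krt19 had 6.76, 5.67, 5.29 and 6.84 in the RIPK3 triple KO and 5.13, 5.67, 5.55 and 5.43 in the TRAF2/Casp8 KO. Krt7 lay at 5.60 to 5.93 and at 5.47 to 5.88. In the IKKβ triple KO the 3 means lay at 7.53 to 8.71 (neutrophil and myeloid), 5.98 to 7.62 (erythroid) and 4.98 to 5.63 (biliary), and of these markers Sox9 was called lower than in the RIPK3 triple KO. The part of these cells in the differences of Mt1, Mt2, Slc30a1 and Slc39a5 was not tested.

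**Figure D4:**
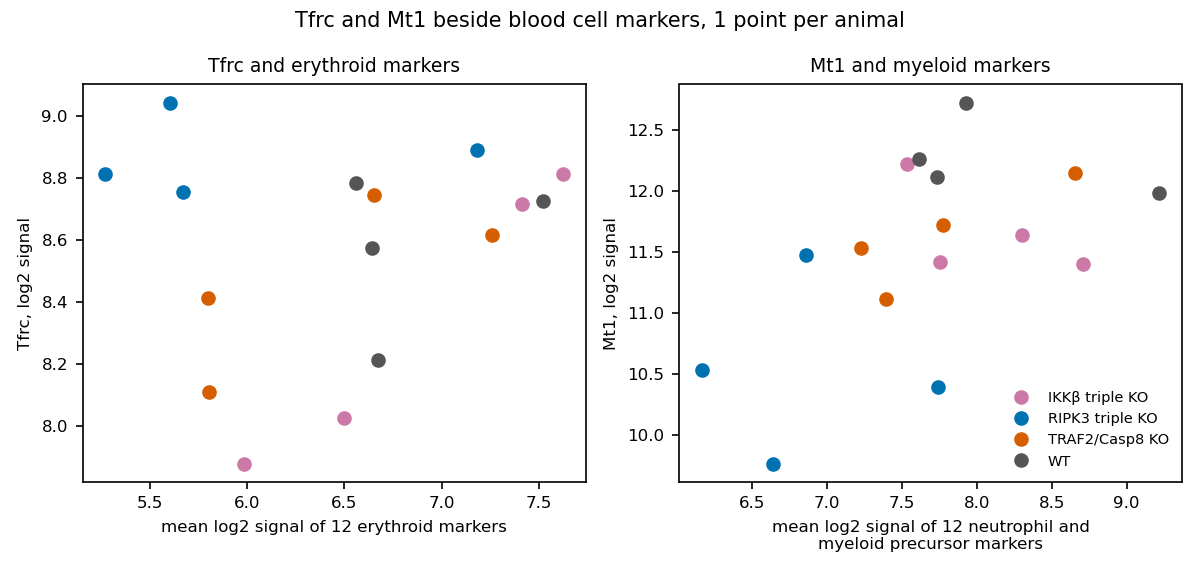
Tfrc against the mean log2 signal of 12 erythroid markers (left) and Mt1 against that of 12 neutrophil and myeloid precursor markers (right), log2 signal on both axes, 1 point per animal coloured by genotype. RIPK3 triple KO animals hold the lowest 3 erythroid and the lowest 3 myeloid means, at 5.27 to 5.67 and 6.16 to 6.86.

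Metallothionein genes also answer to interleukin-6 and glucocorticoids, so lists of genes known to respond to these were read beside them. Whether these signals, or oxidative stress, had a part in the Mt1 and Mt2 differences was not tested. Of 15 measured interleukin-6 and STAT3 responsive genes, 0 were called higher and 2 lower in the RIPK3 triple KO against WT, with a list median of −0.29 beside −0.01 over all genes. The 2 were the acute-phase gene Saa3 (−1.15, limma adjusted p = 0.016) and the fibrinogen gene Fga (−0.51, 0.0113). Neither was called in a fit of these 2 genotypes alone (0.105 and 0.0828), and Saa3 also missed the threshold without RIPK3 triple KO replicate 2 (0.0511) or WT replicate 3 (0.0551). Saa3 was also lower in the TRAF2/Casp8 KO than in WT, by −1.52 (adjusted p = 0.00195). Its signal was dim, at 3.64 to 4.18 in the RIPK3 triple KO and 4.48 to 5.83 in WT, beside array medians of 4.90 to 5.05. Among WT livers, replicate 1 stood highest in several list genes. Orm1 was 12.13 there and 5.46 to 9.41 in the other WT livers, and Orm2 was 11.48 against 4.10 to 6.78. Fga and Fgb were instead highest in WT replicate 2. The list median without WT replicate 1 was not computed.

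Of 10 glucocorticoid responsive genes, 0 were called in the RIPK3 triple KO against WT. In the TRAF2/Casp8 KO against WT, Tsc22d3, which encodes the glucocorticoid-induced leucine zipper, was lower (−0.56, limma adjusted p = 0.00272) and the transcription factor gene Zbtb16 was higher (0.98, 0.00776). Tsc22d3 was higher in the RIPK3 triple KO than in the TRAF2/Casp8 KO (0.59, adjusted p = 0.00967), and Zbtb16 was lower in the IKKβ triple KO than in the TRAF2/Casp8 KO (−1.06, 0.0102); fits of the 2 genotypes alone gave 0.104 and 0.0969 for these. Of 9 NRF2 target genes, which answer to oxidative stress, Gclc, encoding a subunit of the enzyme that starts glutathione synthesis, was lower in the TRAF2/Casp8 KO than in WT (−0.60, adjusted p = 0.0236, and up to 0.0877 without any of 4 of the arrays), and 0 were called in the RIPK3 triple KO against WT.

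Slc30a10 and Slc39a14 encode manganese transporters of the liver, an exporter and an importer that also takes up zinc and iron. Slc30a10 averaged 7.92 ± 0.28 in the IKKβ triple KO, 7.44 ± 0.39 in the RIPK3 triple KO, 7.55 ± 0.35 in the TRAF2/Casp8 KO and 7.96 ± 0.21 in WT (SD, n = 4 each), and all groups overlapped. Its RIPK3 triple KO minus WT difference of −0.52 had a limma adjusted p of 0.261.

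Slc39a14 had 9.54, 9.69, 9.79 and 9.93 in the IKKβ triple KO, 9.44, 9.75, 9.75 and 9.51 in the RIPK3 triple KO, 9.53, 9.47, 9.70 and 9.47 in the TRAF2/Casp8 KO, and 9.94, 9.84, 9.73 and 10.02 in WT. TRAF2/Casp8 KO livers lay just below WT livers without overlap. The difference of −0.34 had a limma adjusted p of 0.121 (95% interval −0.57 to −0.12). Along with Slc30a1 lower and Hamp higher, that made 2 members lower and 1 higher without overlap in the TRAF2/Casp8 KO against WT, where 4.49% of probe sets were lower and 4.76% higher without overlap.

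Hamp, the hepcidin gene, had 10.42, 11.66, 10.49 and 10.25 in the IKKβ triple KO, 9.16, 9.49, 8.56 and 10.74 in the RIPK3 triple KO, 9.52, 10.92, 9.41 and 9.75 in the TRAF2/Casp8 KO, and 9.26, 8.29, 9.06 and 9.12 in WT. All IKKβ triple KO and all TRAF2/Casp8 KO livers lay above all WT livers, and 1 liver each of the RIPK3 triple KO and TRAF2/Casp8 KO stood near the IKKβ triple KO values. In the IKKβ triple KO minus WT the difference was 1.77 ± 0.44 (SE, 95% interval 0.82 to 2.72), or 3.41-fold, and did not pass the test (unadjusted p = 0.00121, limma adjusted p = 0.399); Hamp was the 1 member without overlap there, where 1.51% of probe sets were higher without overlap. The TRAF2/Casp8 KO minus WT difference was 0.97 (95% interval 0.02 to 1.91, adjusted p = 0.351). The RIPK3 triple KO minus WT difference was 0.55 (−0.39 to 1.50, adjusted p = 0.637), and the IKKβ triple KO minus RIPK3 triple KO difference was 1.22 (0.27 to 2.17, adjusted p = 0.201). The SD of Hamp over the 16 arrays stood at the 99.7th percentile of all genes.

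**Figure D5:**
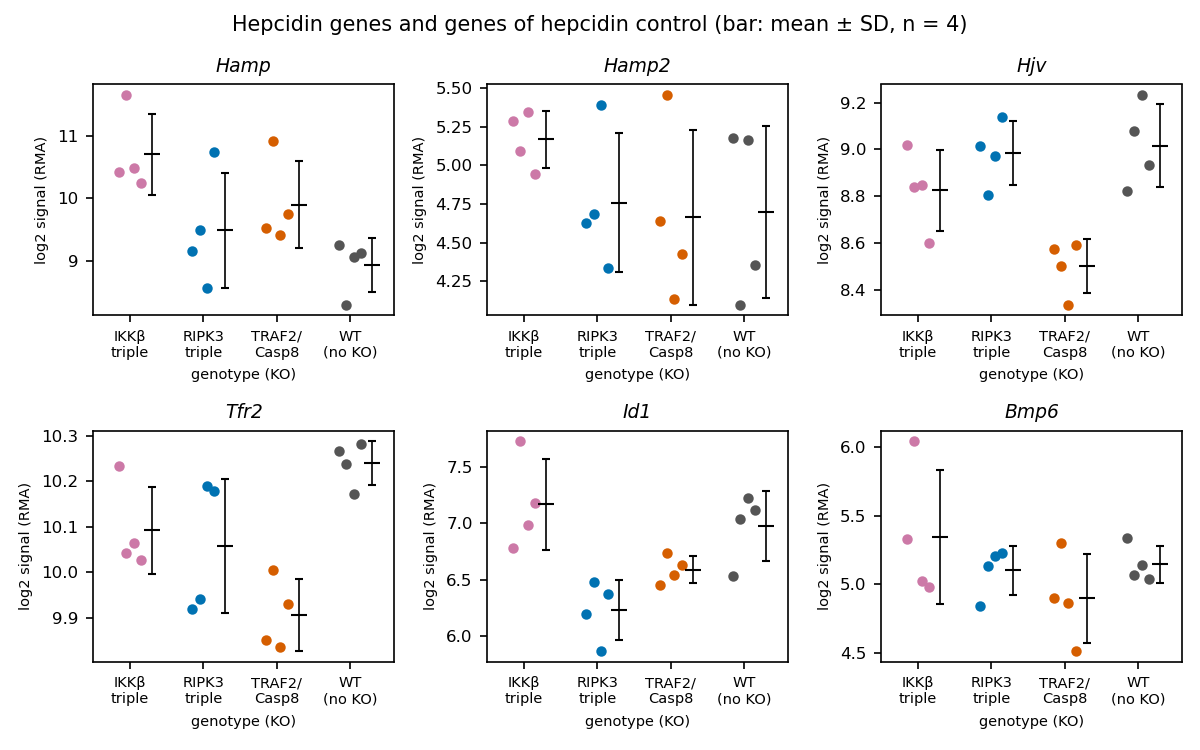
Log2 signal (vertical axes, RMA scale) of Hamp, Hamp2, Hjv, Tfr2, Bmp6 and the signalling target Id1 by genotype, with 1 point per animal and bars for the mean ± SD (n = 4). Hamp lies at 10.25 to 11.66 in the IKKβ triple KO, above the 8.29 to 9.26 of WT; Hjv is lowest in the TRAF2/Casp8 KO, at 8.34 to 8.59.

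A list of hepcidin control by BMP, HFE and SMAD signalling held 22 genes, among them Hamp2 and targets of that signalling such as Id1. Of these, 2 were called in the TRAF2/Casp8 KO against WT, both lower. Hjv encodes hemojuvelin, a BMP co-receptor, and had 8.58, 8.50, 8.34 and 8.59 in the TRAF2/Casp8 KO and 8.82, 9.08, 9.23 and 8.93 in WT. It fell by 0.51 ± 0.11 (SE; limma adjusted p = 0.0234), a call that any of 4 left-out arrays ended (WT replicates 2 and 3, TRAF2/Casp8 KO replicates 1 and 3), with an adjusted p of up to 0.0831, as did a fit of these 2 genotypes alone (0.0677). Tfr2, encoding the iron-sensing transferrin receptor 2, fell by 0.33 ± 0.08 (adjusted p = 0.0477, up to 0.142 and not called without any of 11 of the arrays, and 0.0784 in a fit of these 2 genotypes alone).

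Id1, a target of BMP-SMAD signalling, was the list's call in the IKKβ triple KO against the RIPK3 triple KO. It had 6.78, 7.73, 6.98 and 7.18 in the IKKβ triple KO and 6.20, 6.48, 5.86 and 6.37 in the RIPK3 triple KO. The groups did not overlap and the difference was 0.95 ± 0.20 (SE; limma adjusted p = 0.0276, up to 0.0933 and not called when any of 4 of the arrays was left out, and 0.107 in a fit of these 2 genotypes alone). In the other comparisons 0 of the 22 genes were called. Hamp2, the second hepcidin gene of the mouse, lay between 4.10 and 5.46 over all arrays, and Bmp6, the iron-regulated BMP ligand, averaged 5.34 ± 0.49 in the IKKβ triple KO and 5.15 ± 0.13 in WT.

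Slc40a1 encodes ferroportin, the iron exporter that hepcidin removes from the cell surface. It averaged 10.81 ± 0.07 in the IKKβ triple KO, 10.87 ± 0.02 in the RIPK3 triple KO, 10.74 ± 0.11 in the TRAF2/Casp8 KO and 10.86 ± 0.08 in WT (SD, n = 4 each). The 95% interval of the IKKβ triple KO minus WT difference was −0.21 to 0.10, and that of the RIPK3 triple KO minus WT difference was −0.15 to 0.16. Its SD over the 16 arrays stood at the 2.1st percentile of all genes. Hepcidin acts on the ferroportin protein, which the arrays do not measure.

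Tfrc, encoding the transferrin receptor that brings iron into cells, had 8.02, 7.88, 8.72 and 8.81 in the IKKβ triple KO, 8.81, 8.75, 9.04 and 8.89 in the RIPK3 triple KO, 8.41, 8.11, 8.75 and 8.61 in the TRAF2/Casp8 KO, and 8.21, 8.73, 8.58 and 8.79 in WT. RIPK3 triple KO livers lay at the high end, just above all TRAF2/Casp8 KO livers, where 2.82% of probe sets were higher without overlap. The difference from the TRAF2/Casp8 KO was 0.40 (limma adjusted p = 0.532), and that from WT was 0.30 (0.561). In the IKKβ triple KO, Tfrc was low in the 2 livers with erythroid marker means of 6.50 and 5.98, and higher in those with 7.41 and 7.62. In the RIPK3 triple KO, Tfrc lay at 8.75 to 9.04 beside erythroid means of 5.27, 5.67, 5.60 and 7.18. The part of erythroid cells in the Tfrc signal was not tested.

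Cp encodes ceruloplasmin, the copper-carrying ferroxidase of plasma. It averaged 12.43 ± 0.04 in the IKKβ triple KO, 12.53 ± 0.05 in the RIPK3 triple KO, 12.51 ± 0.06 in the TRAF2/Casp8 KO and 12.38 ± 0.09 in WT (SD, n = 4 each). The largest of its differences, the RIPK3 triple KO minus WT, was 0.15 (limma adjusted p = 0.319, 95% interval 0.01 to 0.29). Its SD over the 16 arrays stood at the 1.5th percentile of all genes.

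Of 23 further genes of iron transport, storage and sensing, 2 were called, both in the TRAF2/Casp8 KO against WT. Steap2, a metalloreductase gene, had 7.73, 7.54, 7.69 and 7.90 in the TRAF2/Casp8 KO and 7.16, 6.84, 7.11 and 7.24 in WT, and was higher by 0.62 ± 0.12 (SE; limma adjusted p = 0.0144, lost without WT replicate 2 or TRAF2/Casp8 KO replicate 4). Lrp1, an endocytic receptor gene whose protein takes up heme-hemopexin, had 10.64, 10.70, 10.68 and 10.56 in the TRAF2/Casp8 KO and 11.03, 11.07, 10.89 and 11.00 in WT, and fell by 0.35 ± 0.06 (adjusted p = 0.0081), a call that held without any 1 array but not in a fit of these 2 genotypes alone (0.0684). Both groups of values stood apart without overlap. In the same comparison the biliary marker mean lay at 5.90 to 6.04 in the TRAF2/Casp8 KO and at 4.94 to 5.23 in WT. Of 6 biliary markers, 4 were called higher (Epcam, Sox9, Cldn4 and Cldn7, of which Epcam was lost when WT replicate 3 or replicate 1 of the TRAF2/Casp8 KO was omitted). Krt19 and Krt7 were not called, and Krt19 overlapped (5.13 to 5.67 in the TRAF2/Casp8 KO, 5.03 to 6.29 in WT). Of 7 hepatocyte markers, Asgr1 was called lower (−0.41, adjusted p = 0.0422, up to 0.139 and lost without any of 11 of the arrays, and 0.0795 in a fit of these 2 genotypes alone). The median difference of the 7 was −0.08, and their mean signal averaged 11.86 in the TRAF2/Casp8 KO and 11.91 in WT. The part of biliary cells and hepatocytes in the differences of Hjv, Tfr2, Steap2 and Lrp1 was not tested. The transferrin gene Trf averaged 13.32 ± 0.24 in the RIPK3 triple KO and 13.39 ± 0.04 in WT, and the ferritin heavy chain gene Fth1 averaged 12.50 ± 0.03 in the RIPK3 triple KO and 12.39 ± 0.04 in WT. Of 8 measured copper handling genes, 0 were called in each of the 6 comparisons; the copper chaperone gene Cox17 came closest, at 0.29 in the TRAF2/Casp8 KO minus WT (adjusted p = 0.0786).

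Genes with the most similar signal over the 16 arrays were read from 8595 genes with a mean of at least 6. These likenesses share arrays and genotypes, and the r values describe them only. Mt1 was most like Mt2 (r = 0.99), then Glrx (0.89), a glutaredoxin gene, and Lpcat3 (0.89), a phospholipid acyltransferase gene, and Mt2 was most like Mt1, Glrx (0.89) and Lpcat3 (0.85). Slc30a1 was most like Lrp4 (0.93), H2-Q10 (0.92) and Acsl5 (0.91). Slc39a14 was most like Raet1e (0.90), Stat3 (0.88) and Prom1 (0.85), and Cp was most like Klhl2 (0.90), Defb1 (0.89) and the NF-κB cofactor gene Nfkbiz (0.88). Slc30a10 was closest to Mid1ip1 (0.84), Gtf2f2 (0.83) and the pyruvate kinase gene Pklr (0.83). Hamp was closest to Ints1 (0.83), Mbd3 (0.80) and Rpl27 (0.78), and Tfrc to Lrrc29 (0.82), Bhmt (0.81) and Aldh1b1 (0.79). The lowest values were those of Slc40a1, with Tbccd1 (0.78), Gtf3c4 (0.77) and Abhd18 (0.76).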

How the data were processed

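RNA of 16 whole livers was hybridised to 16 Affymetrix whole-transcript arrays, 4 animals per genotype, grouped by the labels. The authors deposited log2 signals computed by RMA, per the submitters' processing notes. Its version, probe set definition and genome build are not given here, and the base of the logarithm was inferred from the range, 0.89 to 13.65. The 16 columns entered as deposited, unfiltered, and left 0 per-sample columns aside.

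All 35556 probe sets were fitted with limma 3.58.1 in R 4.3.3 (lmFit, then eBayes with no trend; two-sided tests) as 1 model with 4 genotype means and an F-test over them. Benjamini-Hochberg adjustment ran over every probe set, and the threshold was 0.05. An adjusted p is from this model unless another fit or a left-out array is named beside it, and the script was tested on simulated data. A gene stands for its probe set with 1 symbol and the highest mean. The number of arrays limits the precision; each array is a separate animal by its mouse number in the labels. The 9 members and the gene lists were chosen with earlier results of these data known. Named are all members, list genes past the threshold (up to 4 per list and comparison, or up to 2 with the smallest adjusted p where none passed), the 3 genes most correlated with each member, and the deleted genes; Trf, Fth1, Hamp2, Bmp6 and Mtf1 were added by their role. Settings tried beside it were robust eBayes with an intensity trend, fits of 2 genotypes, a filter on dim probe sets (the lowest of 3 equal parts), a repeated quantile normalisation, median centring, testing 1 probe set per gene, array weights, blocks for replicate number (fixed) or plate row (random), and omission of each array. Promoter windows came from RefSeq (GRCm38.p6). Plots used matplotlib 3.10.9 (Python 3.11.15).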

Additional observations from a re-analysis of the deposited data

Results flagged for a closer look

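In 7 of 116 groups of 4 arrays, 1 animal lay far from the other 3; chance gives this in about 1 of 20 groups. None of the 7 was a value of the 9 members. Saa3 was 4.03 in TRAF2/Casp8 KO replicate 2 and 3.38 to 3.48 in the others of its genotype. RIPK3 triple KO replicate 4 had a Gclc signal of 10.33, against 10.88 to 10.99 in the others. The erythroid marker mean was 7.52 in WT replicate 2 and 6.56 to 6.67 in the others. The mean of Kupffer cell, macrophage and monocyte markers was 9.49 in RIPK3 triple KO replicate 4 against 8.94 to 9.01 in the others, and 9.76 in WT replicate 1 against 8.78 to 8.84. The lymphocyte marker mean was 4.91 in IKKβ triple KO replicate 1 against 5.69 to 5.76 in the others, and 5.76 in TRAF2/Casp8 KO replicate 4 against 5.54 to 5.56.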

How the results depend on the processing

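Over the alternatives other than leaving out an array, 479 of 492 member differences kept their direction and their side of the threshold, and 844 of 864 did so when 1 array was left out; no reversed difference was called in either setting. The 3 calls in the RIPK3 triple KO against WT were 3 without any 1 array (3 to 3) and fell to 2 with these 2 genotypes fitted alone, where Mt1 had an adjusted p of 0.0555. In the TRAF2/Casp8 KO against WT, 1 member was called in place of 0 without the dimmest probe sets, with 1 probe set per gene and with array weights, and 0 to 1 without an array. In the IKKβ triple KO against the RIPK3 triple KO, the count of 1 became 0 with these 2 genotypes alone, 2 with 1 probe set per gene, and 0 to 2 without an array. The count of members with any difference was 1 to 3 without an array. With array weights, 3 small differences turned: −0.0437 for Mt1 and −0.115 for Mt2 in the IKKβ triple KO minus the TRAF2/Casp8 KO, and −0.0005 for Slc40a1 in the RIPK3 triple KO minus WT. The probe set shared by Slc30a1 and 1700034H15Rik, an alternative chosen after seeing the data, gave 0.023 in the RIPK3 triple KO minus the TRAF2/Casp8 KO and 0.002 in the IKKβ triple KO minus WT. Without 1 array, the differences that changed sign ranged from −0.141 to 0.216 (Mt1), −0.298 to 0.289 (Mt2) and −0.265 to 0.0467 (Tfrc) in the IKKβ triple KO minus the TRAF2/Casp8 KO, from −0.225 to 0.0163 for Tfrc in the TRAF2/Casp8 KO minus WT, from −0.0221 to 0.0444 for Slc40a1 in the RIPK3 triple KO minus WT, and for Slc30a10 from −0.147 to 0.0743 in the IKKβ triple KO minus WT and from −0.271 to 0.0499 in the RIPK3 triple KO minus the TRAF2/Casp8 KO. The cause of these changes was not tested. Replicate numbers did not pair the samples: over 24 same-numbered pairs the correlation of deviations was −0.10 to 0.16, over 0.1 in 4, and 3 of 16 arrays correlated best with their own number. With the replicate block, the count in the RIPK3 triple KO against WT was 3, and the F-test's Mt1 had an adjusted p of 0.0503; among list genes it ended the calls of Hjv (0.0603) and Tfr2 (0.0982) in the TRAF2/Casp8 KO against WT and of Slc30a9 (0.067) in the RIPK3 triple KO against WT, among markers those of Asgr1 (0.0573) in the TRAF2/Casp8 KO against WT, Epcam (0.0556) in the RIPK3 triple KO against WT and Gzma (0.0781) in the RIPK3 triple KO against the TRAF2/Casp8 KO, and it changed no other call given here. Repeated quantile normalisation ended the calls of Tfr2 (0.0595) and of Gzma against the TRAF2/Casp8 KO (0.0724); that Gzma call was also lost with median centring (0.0646) and, like Epcam in the RIPK3 triple KO against WT (0.0509), with robust eBayes and an intensity trend (0.0532). A second probe set with 1 symbol was not run, since each member has only 1.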
